A study of Mus musculus with 18 samples.

Results

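Wildtype mouse embryonic stem cells (mESCs) grown in leukemia inhibitory factor (LIF) were compared with FLAG-WT mESCs grown in LIF and 2i. The comparison took 4 of the series' 18 RNA-seq libraries, chosen by their labels: 2 of unmodified wildtype mESCs in 1000 U/ml LIF with no inhibitor, and 2 of FLAG-EED wildtype knock-in mESCs (FLAG-WT), sampled at day 0 in 1000 U/ml LIF with 1 µM of the MEK inhibitor PD0325901 and 3 µM of the GSK3 inhibitor CHIR99021. The FLAG-WT cells carry EED of wildtype sequence with a FLAG tag. Both were grown on gelatin in medium with serum, per the labels' protocols. Levels of 2 further groups are set beside them: K19R mESCs, a knock-in whose FLAG-tagged EED has the K19R substitution, in the same LIF and 2i, and FLAG-WT embryoid bodies, aggregates kept without LIF and 2i, at day 2. By its title the series is about acetylation of EED, the core component of Polycomb repressive complex 2 (PRC2) that binds the mark the complex makes. Medium, knock-in and count table all differed between the wildtype and the FLAG-WT libraries, so their parts in any difference cannot be told apart. The sources used here do not give how the wildtype cells relate to the knock-in lines or how many clones were used.

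LIF acts through JAK kinases and the transcription factor STAT3 and keeps mESCs undifferentiated in serum. In the 2i mixture, PD0325901 blocks the MEK kinases and with them ERK, the kinase through which autocrine FGF4 moves mESCs toward differentiation. CHIR99021 blocks GSK3, which marks β-catenin for destruction, and so mimics a WNT signal. Cells in 2i are known as naive or ground state mESCs, with high and even Nanog and Prdm14 and little de novo DNA methyltransferase, whereas cells in serum and LIF are mixed and express some genes of the later epiblast.

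The wildtype libraries held 14190166 and 37375083 counts, the FLAG-WT libraries 22426155 and 23344205. All 4 expressed the markers that define mESCs. Pou5f1 had 717 and 668 CPM in wildtype mESCs, against 944 and 920.4 CPM in FLAG-WT mESCs. Sox2 had 427 and 435 CPM in wildtype mESCs, against 552 and 527 CPM in FLAG-WT mESCs. Zfp42 had 525 and 509 CPM in wildtype mESCs, against 966 and 945 CPM in FLAG-WT mESCs (CPM, the count scaled to a common library total by trimmed mean of M-values). Markers of other cells were not uniformly absent. Tpbpa (trophoblast), Lum (fibroblast), Ptprc (blood) and Mesp1 (streak) had at most 7 counts over the 2 libraries of either group, but other markers of those cells were expressed. The collagen gene Col1a1 was higher in wildtype mESCs, and the trophoblast factor Gata3 and the neural tubulin gene Tubb3 were higher in FLAG-WT mESCs. Tubb3 had 78.4 and 74 CPM in wildtype mESCs, against 187 and 182 CPM in FLAG-WT mESCs. Gata1, a blood factor, had 2.34 and 2.17 CPM in wildtype mESCs, against 4.55 and 5.83 CPM in FLAG-WT mESCs. FLAG-WT replicate 2 stood apart from replicate 1 in endoderm genes such as Afp, and results that rest on it are given with and without it. The labels do not say that replicates were separate cultures, so p-values measure the spread between replicate libraries only, which may be technical. That spread was estimated over all 18 libraries of the series, embryoid bodies included, and not from these 4 alone. Fewer cells of a type and less RNA per cell cannot be told apart in these bulk samples.

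Of 19296 genes tested, 64.9% passed an adjusted p of 0.05 with edgeR's quasi-likelihood test, 6251 (32.4%) higher and 6268 (32.5%) lower in wildtype mESCs. A call was therefore common, and 31.4% of all genes were both called and at least 2-fold apart, 15.5% higher and 15.9% lower. The counts of list members below are to be read against these shares. The 2 libraries of each group lay close together, so that in 83% of all tested genes the groups did not overlap, with wildtype mESCs higher in 41.7% and lower in 41.3%. The median log2 fold change over all genes was 0.00081. Each gene that passed the test and is given below with its values in the 4 libraries had groups that did not overlap, and values in brackets after them are log2 fold changes of wildtype over FLAG-WT mESCs.

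**Figure D1:**
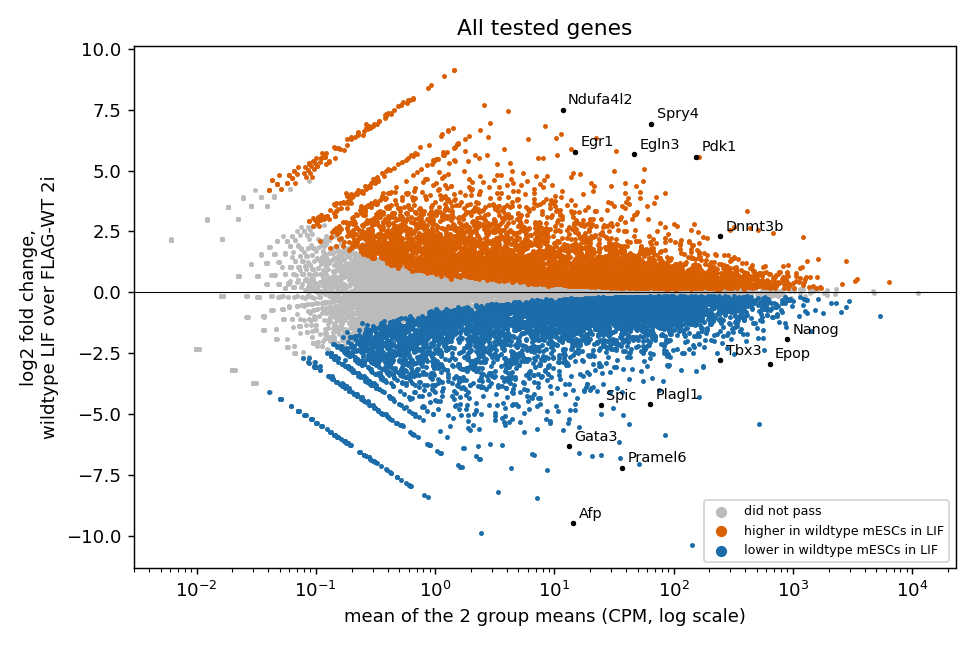
Log2 fold change of wildtype mESCs in LIF over FLAG-WT mESCs in LIF and 2i for each of 19296 tested genes, against the mean of the 2 group means in CPM on a log axis. Orange and blue points passed an adjusted p of 0.05 and grey points did not. Named genes are black, with Spry4 and Egln3 near the upper edge and Afp and Pramel6 near the lower edge.

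**Figure D2:**
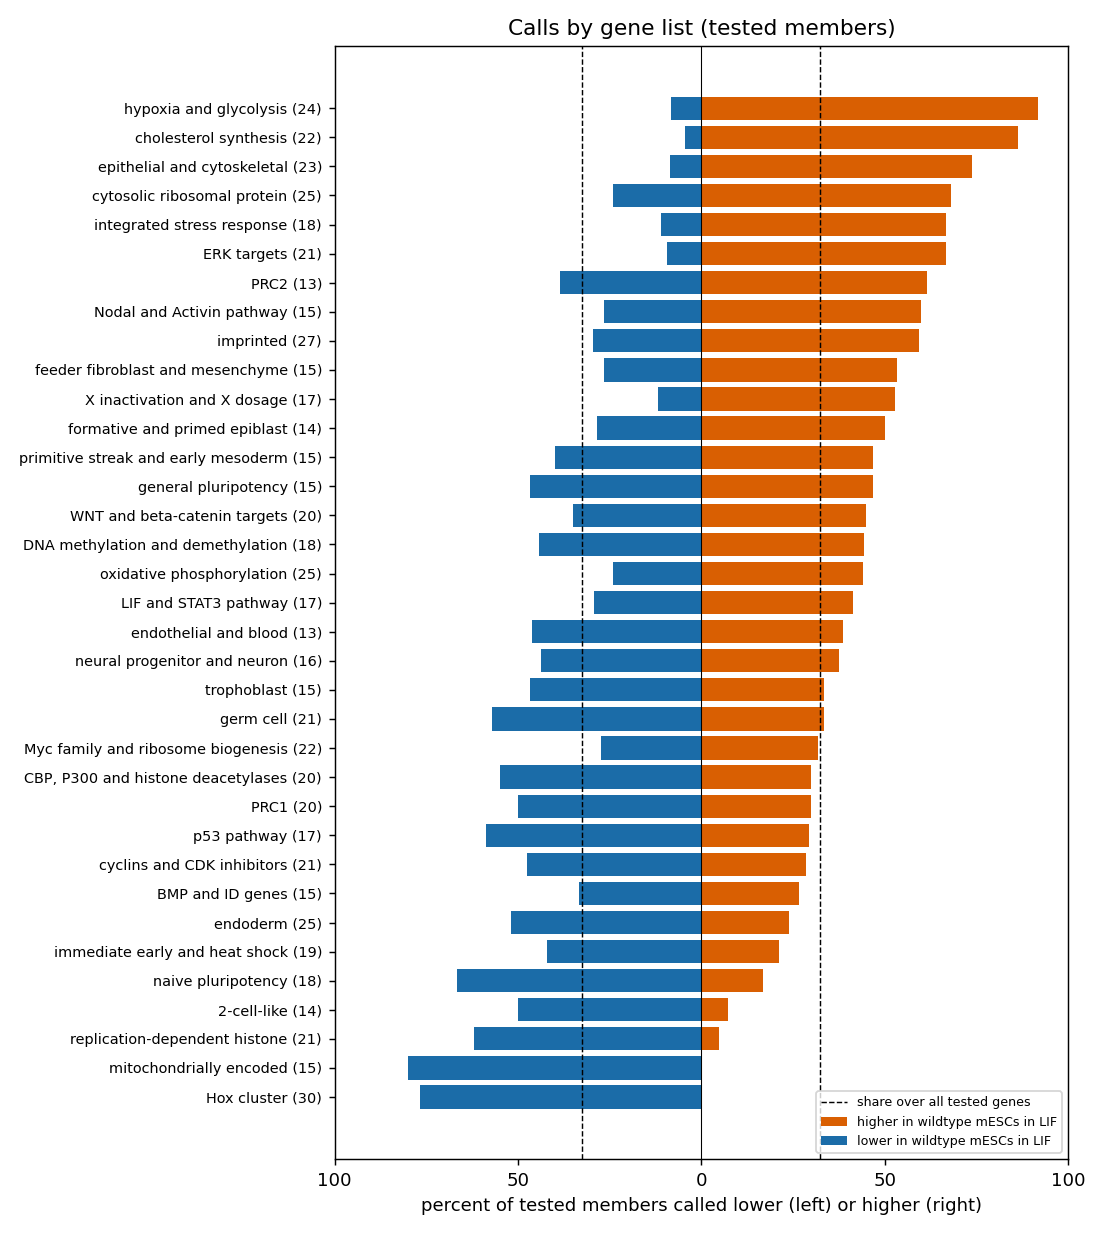
Percent of the tested members of each gene list called higher (orange, right) or lower (blue, left) in wildtype mESCs in LIF than in FLAG-WT mESCs in LIF and 2i, with the number tested in brackets. Dashed lines mark the shares over all genes, 32.4% higher and 32.5% lower. Hypoxia and glycolysis genes reach 91.7% higher, and Hox genes 76.7% lower.

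The naive pluripotency genes were mostly lower in wildtype mESCs, and the core factors far less so than Nanog, Tbx3 and Spic. Of 18 tested naive genes 12 were lower and 3 higher, with a median log2 fold change of -0.62. Nanog, whose product sustains self-renewal, had 371 and 374 CPM in wildtype mESCs, against 1408 and 1432 CPM in FLAG-WT mESCs. Its log2 fold change was -1.93 ± 0.10 SE, edgeR adjusted p = 7.06e-16, and both wildtype libraries lay below both FLAG-WT libraries. Tbx3, a T-box factor of naive cells, had 62.7 and 62.3 CPM in wildtype mESCs, against 438 and 424 CPM in FLAG-WT mESCs, a log2 fold change of -2.79 ± 0.09 SE, edgeR adjusted p = 6.18e-20. Spic, an ETS-family factor, had 1.88 and 1.89 CPM in wildtype mESCs, against 47.3 and 46.8 CPM in FLAG-WT mESCs (-4.63 ± 0.16 SE, edgeR adjusted p = 1.53e-19). Klf2 and Klf4, Krüppel-like factors that can hold mESCs in the naive state, fell by 1.57 and 1.29 on the log2 scale. Prdm14, which represses de novo methylation genes, had 14.4 and 15.2 CPM in wildtype mESCs, against 60.3 and 60.7 CPM in FLAG-WT mESCs. Esrrb, a nuclear receptor downstream of GSK3 inhibition, had 507 and 498 CPM in wildtype mESCs, against 647 and 643 CPM in FLAG-WT mESCs. The 3 naive genes that were higher were Dppa3, Klf5 and Dppa5a. Dppa3 had 29.1 and 29.2 CPM in wildtype mESCs, against 3.71 and 4.8 CPM in FLAG-WT mESCs (2.77 ± 0.14 SE, edgeR adjusted p = 1e-15).

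Among 15 general pluripotency genes 7 were higher and 7 lower, with no common direction. Pou5f1 and Sox2 fell by 0.43 and 0.33 on the log2 scale. Rex2 fell by 2.21 and Gdf3 by 1.36. Lin28a, an RNA-binding protein that blocks let-7 microRNA, had 414 and 427 CPM in wildtype mESCs, against 176 and 173 CPM in FLAG-WT mESCs (1.27 ± 0.08 SE, edgeR adjusted p = 3.37e-14). Utf1 and Tdgf1, the Nodal co-receptor, rose by 1.15 and 1.09 on the log2 scale. In the other 2i cells, Nanog had 1422 and 1380.5 CPM and Tbx3 428 and 433 CPM in K19R mESCs. In FLAG-WT embryoid bodies at day 2 Nanog had 95.2 and 94.8 CPM.

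**Figure D3:**
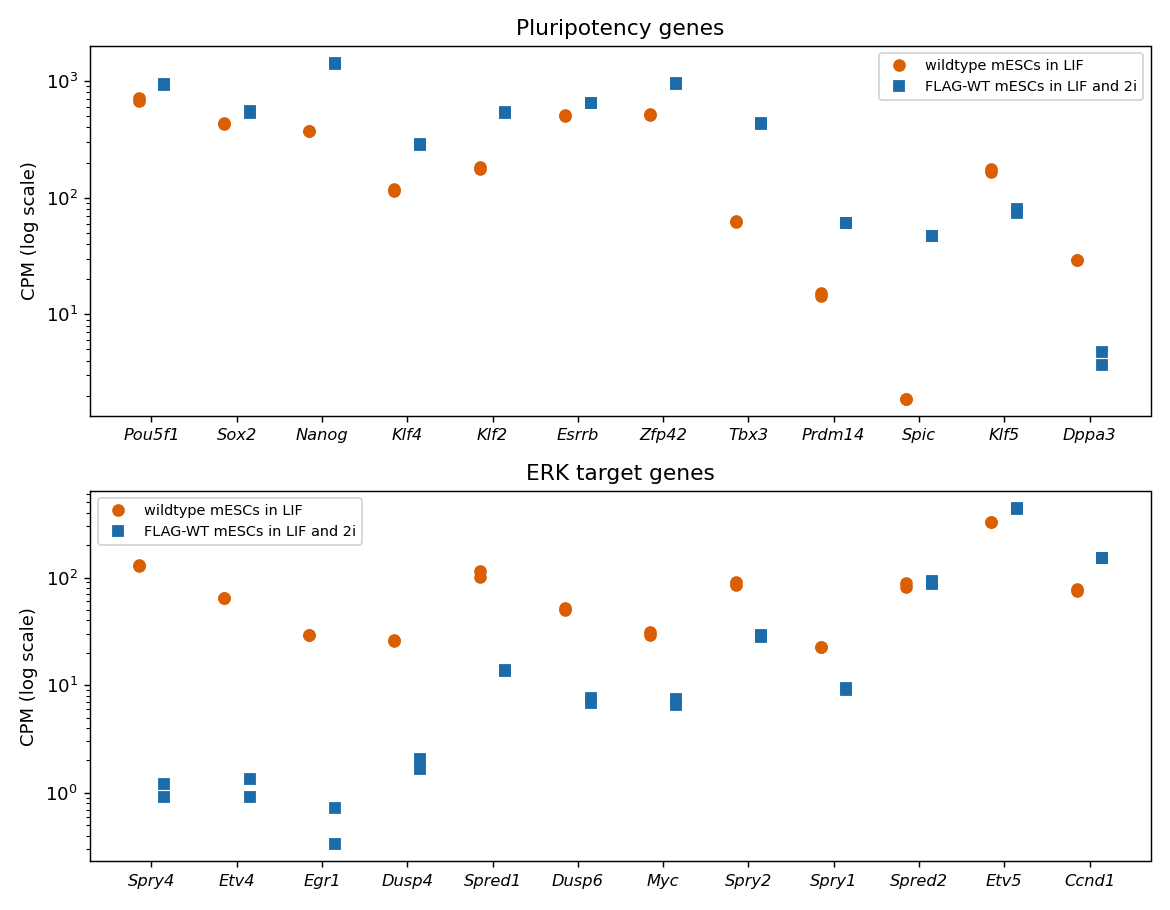
CPM on a log axis in each library for 12 pluripotency genes (top) and 12 ERK target genes (bottom), with wildtype mESCs in LIF as orange circles and FLAG-WT mESCs in LIF and 2i as blue squares to their right, 2 libraries each. Nanog, Tbx3 and Spic sit lower in wildtype mESCs, whereas Spry4, Etv4 and Egr1 sit above the FLAG-WT squares.

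The ERK targets, genes that ERK signalling switches on and many of which feed back on it, were mostly higher in wildtype mESCs. Of 21 tested, 14 were higher and 2 lower, with a median log2 fold change of 1.46. Spry4, a feedback inhibitor of receptor tyrosine kinase signalling, had 131 and 127 CPM in wildtype mESCs, against 1.21 and 0.919 CPM in FLAG-WT mESCs. The groups did not overlap, and the level was 121 times as high in wildtype mESCs (6.92 ± 0.12 SE, edgeR adjusted p = 5.69e-26). Etv4, an ETS factor induced by FGF, had 64.7 and 64.7 CPM in wildtype mESCs, against 0.917 and 1.36 CPM in FLAG-WT mESCs (5.82 ± 0.14 SE, edgeR adjusted p = 1.48e-22). Egr1, an immediate early zinc finger factor, had 29.6 and 29.1 CPM in wildtype mESCs, against 0.334 and 0.719 CPM in FLAG-WT mESCs (5.77 ± 0.18 SE, edgeR adjusted p = 1.98e-20).

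Dusp4 and Dusp6, phosphatases that remove phosphate from ERK, followed with smaller changes. Of others of that kind, Dusp5 rose by 1.03 on the log2 scale, and Dusp9, outside this list, fell by 0.38. Dusp4 had 25.7 and 26.1 CPM in wildtype mESCs, against 1.67 and 2.08 CPM in FLAG-WT mESCs (3.78 ± 0.13 SE, edgeR adjusted p = 1.88e-19). Dusp6 had 51.6 and 50.3 CPM in wildtype mESCs, against 7.63 and 6.83 CPM in FLAG-WT mESCs (2.81 ± 0.16 SE, edgeR adjusted p = 6.18e-15). Spred1, Spry2 and Spry1, further inhibitors of the pathway, rose by 3.00, 1.61 and 1.31 on the log2 scale, and Myc by 2.11. The 2 targets that were lower were Etv5 and Ccnd1. Ccnd1, which encodes cyclin D1, had 74.8 and 78.5 CPM in wildtype mESCs, against 153 and 152 CPM in FLAG-WT mESCs (-0.99 ± 0.08 SE, edgeR adjusted p = 8.56e-12). Etv5 fell by 0.43 on the log2 scale. The other 5 members, among them Spred2 at 81.1 and 88.6 CPM in wildtype mESCs, against 91.9 and 87.8 CPM in FLAG-WT mESCs, did not pass the test. In K19R mESCs in 2i Spry4 had 0.858 and 0.8 CPM and Egr1 0.149 and 0.047 CPM, while FLAG-WT embryoid bodies at day 2 had 162 and 173 CPM of Spry4 and 18.9 and 18 CPM of Egr1.

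The WNT and β-catenin targets had no single direction: 9 of 20 were higher and 7 lower in wildtype mESCs. Axin2, a negative regulator of the pathway that β-catenin induces in many tissues, had 12.1 and 12.4 CPM in wildtype mESCs, against 11 and 11.5 CPM in FLAG-WT mESCs, and did not pass the test (0.12 ± 0.13 SE, edgeR adjusted p = 0.408). Lef1, a DNA-binding partner of β-catenin, was higher, at 7.15 and 8.29 CPM in wildtype mESCs, against 0.5 and 0.24 CPM in FLAG-WT mESCs (4.40 ± 0.26 SE, edgeR adjusted p = 1.95e-14). Rnf43 and Sp5 rose by 3.72 and 3.30 on the log2 scale, at no more than 2.19 CPM in any of the 4 libraries. Apcdd1, a membrane WNT inhibitor, was lower, at 3.77 and 3.69 CPM in wildtype mESCs, against 24.3 and 27.7 CPM in FLAG-WT mESCs (-2.81 ± 0.16 SE, edgeR adjusted p = 1.83e-14). Notum, an enzyme that inactivates WNT ligands, and Dkk1, a secreted antagonist, fell by 1.87 and 3.13. With genes held to at least 10 CPM in 2 of the 4 libraries, which leaves out the low members, the median log2 fold change of the list was -0.64, against 0.64 with all tested members.

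The promoter of Sp5, which encodes a zinc finger factor known as a direct WNT target, is shown because TCF and LEF factors bind cores like CTTTGA. RefSeq (GRCm38.p6) gives it at chr2:70474673-70474972, plus strand, from 250 bases before to 50 bases after the start site, and capitals mark the 2 copies of CTTTGA, found by a search of both strands.
Sp5: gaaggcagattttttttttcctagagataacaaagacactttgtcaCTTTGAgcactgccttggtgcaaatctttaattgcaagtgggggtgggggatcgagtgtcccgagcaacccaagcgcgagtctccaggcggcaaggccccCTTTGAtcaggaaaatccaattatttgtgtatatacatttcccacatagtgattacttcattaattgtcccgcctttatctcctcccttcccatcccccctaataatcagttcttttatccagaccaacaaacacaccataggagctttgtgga
The core was in the promoters of 6 of the 14 listed genes matched in the table, and in 18.2% of the promoters of all 27025 genes in it. The window shown was the first listed for Sp5 that held the core. A match is not a site of binding.

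Markers of the formative epiblast were higher in part. Of 14 genes 7 were higher, each of them at least 2-fold, and 4 lower. Fgf15, a secreted FGF, had 18.2 and 18.2 CPM in wildtype mESCs, against 0.834 and 0.879 CPM in FLAG-WT mESCs (4.40 ± 0.18 SE, edgeR adjusted p = 7.17e-18). Cldn6, a tight junction protein, had 69.8 and 67.2 CPM in wildtype mESCs, against 7.84 and 10.7 CPM in FLAG-WT mESCs (2.88 ± 0.10 SE, edgeR adjusted p = 1.05e-19). Pou3f1, a POU-domain factor of the epiblast, had 19.8 and 22.2 CPM in wildtype mESCs, against 4.17 and 4.96 CPM in FLAG-WT mESCs (2.21 ± 0.14 SE, edgeR adjusted p = 8.04e-14). Fgf5, the marker most used for this state, had 0.715 and 0.640 CPM in wildtype mESCs and no count in FLAG-WT mESCs, and taking 3 counts in each library as the floor, wildtype mESCs were at least 5.53-fold higher. Otx2, another formative factor, had 44 and 47 CPM in wildtype mESCs, against 46.5 and 39.9 CPM in FLAG-WT mESCs, and did not pass (0.08 ± 0.09 SE, edgeR adjusted p = 0.442). Foxd3, needed in pluripotent cells and neural crest, was lower, at 10.5 and 10.2 CPM in wildtype mESCs, against 98.6 and 92.2 CPM in FLAG-WT mESCs (-3.21 ± 0.11 SE, edgeR adjusted p = 2.59e-19). FLAG-WT embryoid bodies at day 2 had 68.9 and 67.6 CPM of Fgf5 and 258 and 272 CPM of Otx2.

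All 3 genes of the de novo DNA methylation machinery were higher in wildtype mESCs. Dnmt3b had 412 and 406 CPM in wildtype mESCs, against 80.4 and 85 CPM in FLAG-WT mESCs (2.31 ± 0.08 SE, edgeR adjusted p = 8.22e-20). Dnmt3a had 242 and 248 CPM in wildtype mESCs, against 88.4 and 91.8 CPM in FLAG-WT mESCs (1.44 ± 0.07 SE, edgeR adjusted p = 1.03e-16). Dnmt3l, their catalytically inactive partner, had 270.1 and 266 CPM in wildtype mESCs, against 108 and 109 CPM in FLAG-WT mESCs (1.31 ± 0.10 SE, edgeR adjusted p = 4.18e-12). None of the 3 overlapped between groups. The maintenance enzyme gene Dnmt1 rose by only 0.33 on the log2 scale, and Uhrf1, which guides it to replicated DNA, fell by 0.25. Of the demethylating dioxygenases, Tet1 rose by 1.06 and Tet2 fell by 1.10. Zfp57, a zinc finger protein that keeps imprints methylated, had 190.4 and 202 CPM in wildtype mESCs, against 645 and 627 CPM in FLAG-WT mESCs (-1.69 ± 0.09 SE, edgeR adjusted p = 2.38e-15). Over the whole list of 18 genes, 8 were higher and 8 lower. In K19R mESCs Dnmt3b had 128 and 133 CPM and Dnmt3l 261 and 262 CPM.

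The hypoxia and glycolysis genes gave the largest share of higher calls among the lists of 10 or more tested genes. All 24 passed the test, 22 of them higher in wildtype mESCs, 19 by at least 2-fold, with a median log2 fold change of 1.77. Their summed level was 20981 and 20052 CPM in wildtype mESCs, against 9492 and 9384 CPM in FLAG-WT mESCs. Egln3, a prolyl hydroxylase that marks HIF proteins for destruction and is itself a HIF target, had 92.1 and 90.8 CPM in wildtype mESCs, against 1.63 and 1.92 CPM in FLAG-WT mESCs (5.68 ± 0.13 SE, edgeR adjusted p = 2.12e-23). Pdk1, which turns pyruvate away from the mitochondria, had 299 and 306 CPM in wildtype mESCs, against 6.67 and 6.07 CPM in FLAG-WT mESCs (5.57 ± 0.12 SE, edgeR adjusted p = 7.78e-24). Bnip3, a mitophagy receptor, had 153 and 166 CPM in wildtype mESCs, against 9.51 and 9.39 CPM in FLAG-WT mESCs (4.08 ± 0.11 SE, edgeR adjusted p = 4e-22). Outside the list, Ndufa4l2, a mitochondrial protein induced in hypoxia and one of the 10 genes with the largest increase, had 24.8 and 21.8 CPM in wildtype mESCs, against 0.0834 and 0.16 CPM in FLAG-WT mESCs (7.51 ± 0.31 SE, edgeR adjusted p = 8.89e-18).

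Glucose uptake, glycolysis and lactate export genes were among them. The glucose transporter gene Slc2a1 had 757 and 752 CPM in wildtype mESCs, against 118 and 122 CPM in FLAG-WT mESCs. Tpi1 (triosephosphate isomerase) had 769.6 and 729 CPM in wildtype mESCs, against 73.9 and 73 CPM in FLAG-WT mESCs. Ldha (lactate dehydrogenase A) had 2099 and 1959 CPM in wildtype mESCs, against 414 and 428 CPM in FLAG-WT mESCs. Their log2 fold changes were 2.65, 3.35 and 2.27. Slc16a3, the lactate exporter, rose by 2.79, Pgk1 by 2.44 and Pkm by 1.30. The 2 exceptions were Gapdh and Vegfa. Vegfa, the angiogenic growth factor and a textbook HIF target, had 47 and 48.8 CPM in wildtype mESCs, against 92.5 and 89 CPM in FLAG-WT mESCs (-0.92 ± 0.07 SE, edgeR adjusted p = 5.38e-12). Gapdh fell by 0.36. K19R mESCs in 2i had 3.77 and 3.58 CPM of Egln3 and 7.31 and 6.91 CPM of Pdk1, and FLAG-WT embryoid bodies at day 2 had 4.71 and 5.44 CPM of Egln3 but 199.7 and 216 CPM of Pdk1.

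Promoters of 3 of these genes, all higher in wildtype mESCs, are shown because HIF proteins bind the core ACGTG. They are RefSeq sequences (GRCm38.p6) from 250 bases before to 50 bases after the start site, written along the gene's strand, and capitals mark ACGTG or its reverse complement. Egln3 lies at chr12:54203825-54204124 on the minus strand, Slc16a3 at chr11:120948817-120949116 on the plus strand and Pgk1 at chrX:106186850-106187149 on the plus strand.
Egln3: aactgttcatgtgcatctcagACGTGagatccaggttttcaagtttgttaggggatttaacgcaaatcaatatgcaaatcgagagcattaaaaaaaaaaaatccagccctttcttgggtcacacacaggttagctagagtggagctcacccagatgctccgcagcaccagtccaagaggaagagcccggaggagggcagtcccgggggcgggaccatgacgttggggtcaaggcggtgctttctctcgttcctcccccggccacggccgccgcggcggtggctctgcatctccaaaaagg
Slc16a3: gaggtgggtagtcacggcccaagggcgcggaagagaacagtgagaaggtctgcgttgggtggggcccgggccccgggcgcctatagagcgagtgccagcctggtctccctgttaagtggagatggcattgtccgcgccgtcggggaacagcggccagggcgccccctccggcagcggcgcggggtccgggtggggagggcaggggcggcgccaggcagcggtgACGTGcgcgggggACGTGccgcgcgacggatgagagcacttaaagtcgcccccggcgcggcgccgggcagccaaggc
Pgk1: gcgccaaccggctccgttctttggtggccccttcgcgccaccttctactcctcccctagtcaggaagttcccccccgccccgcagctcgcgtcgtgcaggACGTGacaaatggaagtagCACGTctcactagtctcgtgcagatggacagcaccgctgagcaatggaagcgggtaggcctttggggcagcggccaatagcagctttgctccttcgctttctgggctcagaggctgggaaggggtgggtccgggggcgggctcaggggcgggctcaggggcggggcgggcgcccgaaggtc
The Egln3 window held 1 core, and those of Slc16a3 and Pgk1 held 2 each, none of them inside the longer E-box CACGTG, in which ACGTG is contained. Of the 23 list members matched in the table, 17 (73.9%) had the core in a promoter, against 21.8% of all 27025 genes. CACGTG was in 13% of the matched members and 8.09% of all genes. For each gene the window taken was the first listed one with the core, so its presence there was set by the choice. For Vegfa, which fell, that window lay at chr17:46025114-46025413 on the minus strand and held 1 copy. It lies inside the gene as counted, whose upstream end is at 46032369. A match does not show that HIF proteins bind there.

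**Figure D4:**
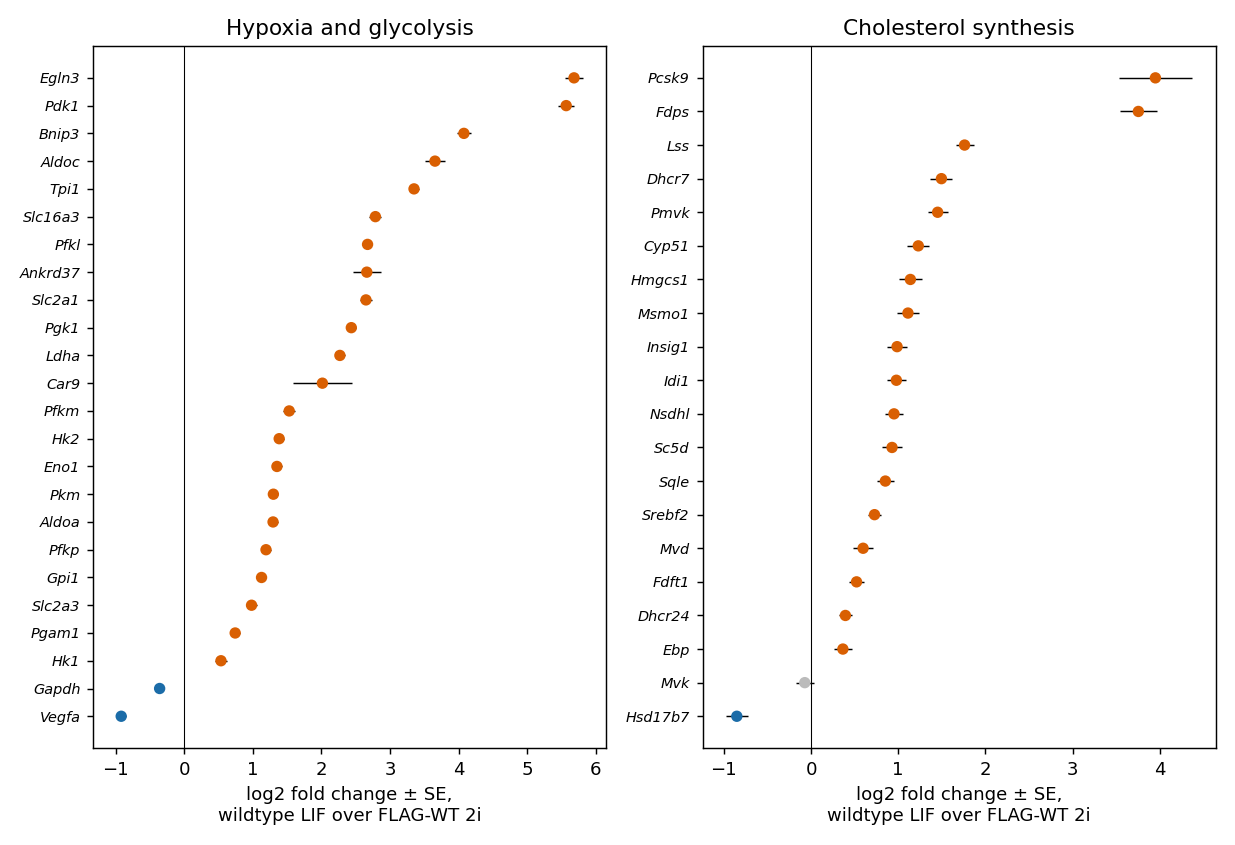
Log2 fold change of wildtype mESCs in LIF over FLAG-WT mESCs in LIF and 2i for the hypoxia and glycolysis genes (left) and 20 of the 22 cholesterol synthesis genes tested (right), with bars of 1 SE from the fit. Orange points were called higher, blue lower, and grey did not pass an adjusted p of 0.05. Gapdh and Vegfa lie left of 0, as does Hsd17b7.

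Cholesterol synthesis genes were higher in wildtype mESCs as a group: 19 of 22 passed the test upward and 1 downward, with a median of 0.97. Lss, which closes the sterol rings, had 97.6 and 99.3 CPM in wildtype mESCs, against 29.4 and 28.8 CPM in FLAG-WT mESCs (1.76 ± 0.10 SE, edgeR adjusted p = 1.67e-14). Fdps, which makes farnesyl diphosphate, had 18.2 and 19.2 CPM in wildtype mESCs, against 1.33 and 1.44 CPM in FLAG-WT mESCs (3.75 ± 0.21 SE, edgeR adjusted p = 6.17e-15). Hsd17b7 was the 1 member that fell, by 0.85.

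Of the 18 integrated stress response genes, which include Atf4 and targets of its product, 12 were higher and 2 lower, with a median of 1.01. Trib3, a pseudokinase, had 39.2 and 38.4 CPM in wildtype mESCs, against 8.76 and 8.07 CPM in FLAG-WT mESCs (2.20 ± 0.10 SE, edgeR adjusted p = 1.58e-16). The serine synthesis genes Psat1 and Phgdh rose by 1.47 and 1.23, and Slc3a2, the chain shared by amino acid transporters, by 1.06. Cth, which makes cysteine, fell by 0.85. Atf4 itself had 186 and 181 CPM in wildtype mESCs, against 172 and 161 CPM in FLAG-WT mESCs, and did not pass (0.13 ± 0.08 SE, edgeR adjusted p = 0.16). It passed when only the 4 libraries were fitted (edgeR adjusted p = 0.023) or only the 6 mESC libraries (edgeR adjusted p = 0.0126).

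Eed, the gene tagged in the FLAG-WT cells, differed little, at 209 and 214 CPM in wildtype mESCs, against 184 and 177 CPM in FLAG-WT mESCs (0.23 ± 0.07 SE, edgeR adjusted p = 0.00608). Without wildtype replicate 2 its edgeR adjusted p was 0.056, and without FLAG-WT replicate 2 it was 0.063. The count covers the whole gene, so it does not check the knock-in. All 13 PRC2 genes tested were called, 8 higher and 5 lower. Ezh2, the methyltransferase subunit, had 252 and 256 CPM in wildtype mESCs, against 136 and 142 CPM in FLAG-WT mESCs (0.87 ± 0.06 SE, edgeR adjusted p = 2.83e-12). Suz12, a core scaffold subunit, had 308 and 349.6 CPM in wildtype mESCs, against 450.0 and 449 CPM in FLAG-WT mESCs (-0.45 ± 0.08 SE, edgeR adjusted p = 1.54e-05). Epop, an accessory subunit highly expressed in mESCs, was much lower, at 150.2 and 147 CPM in wildtype mESCs, against 1137 and 1119.5 CPM in FLAG-WT mESCs (-2.92 ± 0.07 SE, edgeR adjusted p = 1.86e-22). Phf19, another accessory subunit, was higher, at 18.4 and 16.5 CPM in wildtype mESCs, against 4.84 and 7.55 CPM in FLAG-WT mESCs (1.48 ± 0.15 SE, edgeR adjusted p = 2.92e-09). Epop and Suz12, like Cbx8 below, lie on chromosome 11, whose genes as a whole had a median of -0.37. Whether their place on that chromosome had a part in these values was not tested.

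PRC1, the complex that ubiquitinates histone H2A, had 10 of 20 genes lower and 6 higher. Cbx8, a chromodomain protein that reads the mark of PRC2, had 0.52 and 0.418 CPM in wildtype mESCs, against 17.2 and 16.1 CPM in FLAG-WT mESCs (-5.20 ± 0.20 SE, edgeR adjusted p = 2.85e-18). Bmi1, a RING finger subunit, and Kdm2b, which binds CpG islands, fell by 3.02 and 1.96. Cbx7, the main chromodomain subunit of mESCs, rose by 0.43. Of 20 genes for CBP, P300 and histone deacetylases and related acetyltransferases, 11 were lower and 6 higher, none by 2-fold or more. Crebbp, which encodes CBP, fell by 0.34, and Ep300 had 137 and 156 CPM in wildtype mESCs, against 134 and 138 CPM in FLAG-WT mESCs, and did not pass (0.12 ± 0.10 SE, edgeR adjusted p = 0.298).

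The Hox genes, classic targets of PRC2, were lower in wildtype mESCs. Of 39 listed, 30 were tested, 23 were lower by at least 2-fold and none was higher, with a median of -3.23, or -3.18 with the members at 0 counts set at their bound. Levels were low throughout. The summed level of the list was 9.49 and 8.09 CPM in wildtype mESCs, against 67.3 and 61.4 CPM in FLAG-WT mESCs. Hoxc13 had 1.88 and 1.72 CPM in wildtype mESCs, against 12.9 and 13.9 CPM in FLAG-WT mESCs (-2.91 ± 0.19 SE, edgeR adjusted p = 1.19e-13). Hoxd13 had 0.975 and 0.713 CPM in wildtype mESCs, against 11.5 and 8.87 CPM in FLAG-WT mESCs (-3.67 ± 0.22 SE, edgeR adjusted p = 3.85e-14). Hoxd9 had 0.065 and 0.0738 CPM in wildtype mESCs, against 3.8 and 3.56 CPM in FLAG-WT mESCs (-5.59 ± 0.46 SE, edgeR adjusted p = 2.41e-11). Hoxd10 had no count in wildtype mESCs and 1.63 and 1.84 CPM in FLAG-WT mESCs, at least 12.9-fold lower against the floor. The other 7 tested members did not pass. The sum was 64.5 and 65.7 CPM in K19R mESCs.

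Imprinted genes, expressed from 1 parental allele, differed in both directions, 16 of 27 higher and 8 lower, with a median of 0.95. Phlda2, which restrains placental growth, had 41.8 and 38.6 CPM in wildtype mESCs, against 1.63 and 2.76 CPM in FLAG-WT mESCs (4.18 ± 0.17 SE, edgeR adjusted p = 4.39e-18). Grb10, an inhibitor of insulin receptor signalling, rose by 2.08, Rian by 2.01 and Cdkn1c by 2.29. Plagl1, a zinc finger factor, was much lower, at 4.42 and 5.41 CPM in wildtype mESCs, against 128 and 119 CPM in FLAG-WT mESCs (-4.60 ± 0.11 SE, edgeR adjusted p = 6.55e-23). H19, a long noncoding RNA, had 26.3 and 24.1 CPM in wildtype mESCs, against 105 and 174 CPM in FLAG-WT mESCs, and the FLAG-WT libraries differed from each other. Without FLAG-WT replicate 2 its log2 fold change was -2.07. H19 had 23 and 23.8 CPM in K19R mESCs.

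Epithelial and cytoskeletal genes were mostly higher, 17 of 23, with 2 lower and a median of 1.35. Epcam, an epithelial adhesion molecule, had 189 and 183 CPM in wildtype mESCs, against 28.6 and 28.1 CPM in FLAG-WT mESCs (2.71 ± 0.07 SE, edgeR adjusted p = 1.21e-21). Cldn7 had 21 and 20.7 CPM in wildtype mESCs, against 1.83 and 3.24 CPM in FLAG-WT mESCs (3.03 ± 0.14 SE, edgeR adjusted p = 1.46e-16). Krt19, an intermediate filament gene, had 46.1 and 43.7 CPM in wildtype mESCs, against 8.84 and 9.55 CPM in FLAG-WT mESCs (2.28 ± 0.10 SE, edgeR adjusted p = 2.69e-17). Cdh1, which encodes E-cadherin, had 608 and 613 CPM in wildtype mESCs, against 595 and 590.0 CPM in FLAG-WT mESCs, and did not pass (0.04 ± 0.06 SE, edgeR adjusted p = 0.567). Lgals3 and S100a11 were lower, by 1.22 and 0.70.

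Of 15 tested feeder fibroblast and mesenchyme genes, 8 were higher, each at least 2-fold, and 4 lower, with a median of 1.49. Acta2, smooth muscle actin, had 47.2 and 40.4 CPM in wildtype mESCs, against 0.584 and 0.48 CPM in FLAG-WT mESCs (6.35 ± 0.19 SE, edgeR adjusted p = 6.16e-21). Col1a2 had 28.4 and 26.2 CPM in wildtype mESCs, against 0.167 and 0.719 CPM in FLAG-WT mESCs (5.91 ± 0.28 SE, edgeR adjusted p = 1.55e-16). Col1a1, the other chain of type I collagen, had 70.2 and 65.6 CPM in wildtype mESCs, against 5.55 and 5.91 CPM in FLAG-WT mESCs. Col3a1, Postn and Thy1 were also higher. The 4 members that fell were Col5a1 by 1.30, Col5a2 by 0.65, Fn1 by 0.34 and Twist1, a mesenchymal transcription factor, by 2.14 on the log2 scale. Of the fibroblast markers, Dcn had 0 and 0.0492 CPM in wildtype mESCs, against 0 and 0.12 CPM in FLAG-WT mESCs, and Lum had 1 count over the wildtype and 0 over the FLAG-WT libraries. The summed level of the list was 1093 and 1051.5 CPM in wildtype mESCs, against 1208 and 1208 CPM in FLAG-WT mESCs, most of it Fn1. Whether other cells contributed to these values was not tested.

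In the LIF and STAT3 pathway 7 of 17 genes were higher and 5 lower, and 2 to 3 lower when any 1 of the 4 libraries was left out. Socs3, the feedback inhibitor of this pathway, had 218 and 205 CPM in wildtype mESCs, against 80.2 and 79.4 CPM in FLAG-WT mESCs (1.40 ± 0.08 SE, edgeR adjusted p = 1.86e-14). Gbx2, a homeobox gene and STAT3 target, had 17.8 and 16.4 CPM in wildtype mESCs, against 2 and 1.76 CPM in FLAG-WT mESCs (3.17 ± 0.19 SE, edgeR adjusted p = 3.84e-14). Pecam1, an adhesion molecule of naive cells, fell by 1.99. In the Nodal and Activin pathway 9 of 15 were higher and 4 lower. Lefty1, an inhibitor of Nodal, had 141 and 132 CPM in wildtype mESCs, against 20.1 and 17.4 CPM in FLAG-WT mESCs (2.86 ± 0.11 SE, edgeR adjusted p = 2.12e-18), whereas Nodal itself had 37.6 and 37.8 CPM in wildtype mESCs, against 151 and 143 CPM in FLAG-WT mESCs (-1.97 ± 0.11 SE, edgeR adjusted p = 3.43e-15). Inhba, an activin subunit, had 2.73 and 3.35 CPM in wildtype mESCs, against 0 and 0.0799 CPM in FLAG-WT mESCs. That was 2 counts in FLAG-WT mESCs, and the ratio of wildtype to FLAG-WT, scaled for library size, was 77.8 with a 95% interval of 21.2 to 648. Among 15 BMP and ID genes 4 were higher and 5 lower. Bmp4, the ligand, had 18.9 and 18.9 CPM in wildtype mESCs, against 3.13 and 3.4 CPM in FLAG-WT mESCs (2.53 ± 0.16 SE, edgeR adjusted p = 7.76e-14). Id2, a target of BMP signalling, fell by 1.36, Id4 by 1.66 and Id1 by 0.42. Id3 rose by 0.34 (edgeR adjusted p = 0.0182), and did not pass with no filter on low counts (edgeR adjusted p = 0.0878). Its call also depended on which libraries were kept. The rise was 0.269 without wildtype replicate 2, 0.215 without FLAG-WT replicate 1 and 0.487 without FLAG-WT replicate 2.

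Lineage markers moved in both directions. Of 15 primitive streak and early mesoderm genes 7 were higher and 6 lower: T, the streak factor Brachyury, had 1.82 and 1.43 CPM in wildtype mESCs, against 0.5 and 0.32 CPM in FLAG-WT mESCs (1.93 ± 0.39 SE, edgeR adjusted p = 0.000121). Evx1 had 0.065 and 0.0738 CPM in wildtype mESCs, against 2 and 2.96 CPM in FLAG-WT mESCs (-5.03 ± 0.47 SE, edgeR adjusted p = 2.75e-10). Among 16 neural genes 6 were higher and 7 lower, with Stmn2, a microtubule regulator, at 258 and 238 CPM in wildtype mESCs, against 74.5 and 81.8 CPM in FLAG-WT mESCs, and Pou3f2, a neural POU factor, at 0.065 and 0.0492 CPM in wildtype mESCs, against 7.88 and 9.51 CPM in FLAG-WT mESCs. Of 15 trophoblast genes 5 were higher and 7 lower, and 3 higher without FLAG-WT replicate 1. Gata3, a trophoblast factor, had 0.455 and 0.271 CPM in wildtype mESCs, against 25.9 and 26.5 CPM in FLAG-WT mESCs (-6.32 ± 0.22 SE, edgeR adjusted p = 3.83e-19). In 13 endothelial and blood genes 5 were higher and 6 lower, and Flt1, a VEGF receptor, had 10.8 and 11.6 CPM in wildtype mESCs, against 0.626 and 1.56 CPM in FLAG-WT mESCs (3.35 ± 0.20 SE, edgeR adjusted p = 3.98e-14).

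The endoderm genes depended on FLAG-WT replicate 2. Of 25 tested, 13 were lower and 6 higher in wildtype mESCs with all libraries, and 9 were lower and 9 higher without FLAG-WT replicate 2, when the median was -0.19 rather than -0.86. Afp, the fetal serum protein alpha-fetoprotein, had 0 and 0.0492 CPM in wildtype mESCs, against 1.79 and 55.6 CPM in FLAG-WT mESCs. That was 2 counts in wildtype mESCs, and the ratio of FLAG-WT to wildtype, scaled for library size, was 819.9 with a 95% interval of 227 to 6777 for counting error only. Without FLAG-WT replicate 2 the log2 fold change of Afp was -5.46 (edgeR adjusted p = 1.4e-06), against -9.47 with it. Ttr, a thyroid hormone carrier, had 0.065 and 0.0246 CPM in wildtype mESCs, against 0.125 and 9.07 CPM in FLAG-WT mESCs. Scaled for library size, the ratio of FLAG-WT to wildtype was 132 (95% interval 36 to 1092). Fgb, a fibrinogen chain, had no count in wildtype mESCs and 0.0834 and 2 CPM in FLAG-WT mESCs. Both passed with all libraries, and without FLAG-WT replicate 2 the edgeR adjusted p was 0.259 for Ttr and 0.0512 for Fgb. Cubn, an uptake receptor of visceral endoderm, had 8.45 and 7.55 CPM in wildtype mESCs, against 0.959 and 9.23 CPM in FLAG-WT mESCs. It did not pass with all libraries (edgeR adjusted p = 0.157) but was higher in wildtype mESCs without that library, by 3.03 on the log2 scale (edgeR adjusted p = 5.38e-09).

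Sparc, Col4a1 and Lamb1 were alike in both FLAG-WT libraries. Sparc, a matrix protein of parietal endoderm, had 245 and 234 CPM in wildtype mESCs, against 877 and 894 CPM in FLAG-WT mESCs (-1.89 ± 0.08 SE, edgeR adjusted p = 5.31e-18). Col4a1, a basement membrane collagen, had 136 and 136 CPM in wildtype mESCs, against 425 and 451 CPM in FLAG-WT mESCs (-1.69 ± 0.09 SE, edgeR adjusted p = 1.81e-15). Lamb1, a laminin chain, was higher, at 229 and 219 CPM in wildtype mESCs, against 56.7 and 60.5 CPM in FLAG-WT mESCs (1.94 ± 0.10 SE, edgeR adjusted p = 1.15e-15). Gata6, a factor that specifies endoderm, had 2.4 and 1.87 CPM in wildtype mESCs, against 2.54 and 1.88 CPM in FLAG-WT mESCs, and did not pass. Gata4, another such factor, had 5.65 and 5.68 CPM in wildtype mESCs, against 4.13 and 6.27 CPM in FLAG-WT mESCs. It did not pass with all libraries (edgeR adjusted p = 0.498) but was higher without FLAG-WT replicate 2, by 0.46 on the log2 scale (edgeR adjusted p = 0.0246).

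Of 21 germ cell genes 12 were lower and 7 higher, and 4 higher without wildtype replicate 2. Dazl, a germ cell RNA-binding protein, had 12.2 and 12.2 CPM in wildtype mESCs, against 154 and 149.7 CPM in FLAG-WT mESCs (-3.64 ± 0.11 SE, edgeR adjusted p = 1.42e-20). Ddx4, the RNA helicase Vasa, had 22.2 and 24.2 CPM in wildtype mESCs, against 6.92 and 7.95 CPM in FLAG-WT mESCs (1.65 ± 0.13 SE, edgeR adjusted p = 6.46e-12). In the 2-cell-like list, 7 of 14 were lower and 1 higher. Many of these genes belong to families of near-identical copies, so their counts are uncertain. The 1 member that was higher was Zscan4a, at 27.2 and 25.1 CPM in wildtype mESCs, against 19.3 and 19.7 CPM in FLAG-WT mESCs (0.42 ± 0.12 SE, edgeR adjusted p = 0.00378). Usp17lb had 2.53 and 1.87 CPM in wildtype mESCs, against 11.2 and 9.07 CPM in FLAG-WT mESCs (-2.27 ± 0.22 SE, edgeR adjusted p = 7.07e-10). Counts are uncertain likewise for Pramel6, Pramel7, Pramef17 and Trim43a, which stood among the 10 lowest. Pramel6 had 0.325 and 0.566 CPM in wildtype mESCs, against 71.3 and 76 CPM in FLAG-WT mESCs (-7.20 ± 0.19 SE, edgeR adjusted p = 4e-22), Pramel7 0.715 and 0.59 CPM in wildtype mESCs, against 71.4 and 68.9 CPM in FLAG-WT mESCs, and Trim43a 0.325 and 0.32 CPM in wildtype mESCs, against 33.6 and 29.9 CPM in FLAG-WT mESCs.

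Among genes of at least 10 CPM in the higher group, leaving out predicted genes and pseudogenes, the 10 with the largest increase held 3 ERK targets (Spry4, Etv4 and Egr1), Ndufa4l2, the fibroblast genes Acta2 and Col1a2, the interferon-inducible GTPases Gbp2 and Gbp2b, the ephrin receptor Epha1 and Calml4. Gbp2 had 23.3 and 21.6 CPM in wildtype mESCs, against 0.292 and 0.2 CPM in FLAG-WT mESCs, and since Gbp2 and Gbp2b are closely alike their counts are uncertain. Epha1 had 21.6 and 19.2 CPM in wildtype mESCs, against 0.125 and 0.36 CPM in FLAG-WT mESCs (6.33 ± 0.23 SE, edgeR adjusted p = 4.9e-19). The 10 lowest also held Bhmt, an enzyme that remethylates homocysteine, at 0.715 and 0.369 CPM in wildtype mESCs, against 49.9 and 48.4 CPM in FLAG-WT mESCs (-6.70 ± 0.22 SE, edgeR adjusted p = 1.04e-19), Olfr1459, an olfactory receptor gene, at 0 and 0.0492 CPM in wildtype mESCs, against 14.2 and 14.3 CPM in FLAG-WT mESCs, Afp, Gata3 and 2 mitochondrial genes. Gm49089, a predicted gene outside the rule and named after its values were seen, had 0.26 and 0.197 CPM in wildtype mESCs, against 293 and 282 CPM in FLAG-WT mESCs.

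In the cell cycle list 10 of 21 genes were lower and 6 higher, and 6 were lower without wildtype replicate 2. Ccnd2 had 32 and 32.9 CPM in wildtype mESCs, against 1.79 and 2.2 CPM in FLAG-WT mESCs (4.02 ± 0.13 SE, edgeR adjusted p = 2.26e-20), opposite in direction to Ccnd1, and Cdk6, a partner of the D cyclins, rose by 3.35. Cdkn1a, which encodes p21, and Cdkn2a fell by 1.05 and 0.84. Of 17 p53 pathway genes 10 were lower and 5 higher, and 3 higher without wildtype replicate 1 or FLAG-WT replicate 2. Trp53, on chromosome 11, had 337 and 326 CPM in wildtype mESCs, against 731 and 719 CPM in FLAG-WT mESCs (-1.13 ± 0.06 SE, edgeR adjusted p = 7.3e-15). Mdm2, the ligase that removes p53, had 104 and 109.8 CPM in wildtype mESCs, against 234 and 238 CPM in FLAG-WT mESCs (-1.14 ± 0.07 SE, edgeR adjusted p = 2.38e-14). Gadd45a rose by 2.33. Of 22 genes for the Myc family and ribosome biogenesis 7 were higher and 6 lower, and Mycl fell by 2.19 while Mycn, at 194 and 191 CPM in wildtype mESCs, against 184 and 185 CPM in FLAG-WT mESCs, did not pass. Among 19 immediate early and heat shock genes 8 were lower and 4 higher, with Jund at 21.4 and 21 CPM in wildtype mESCs, against 98.5 and 97.7 CPM in FLAG-WT mESCs (-2.21 ± 0.10 SE, edgeR adjusted p = 3.52e-17) and Hsp90ab1 higher by 0.43.

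The listed Y-linked genes were all higher in wildtype mESCs, 7 of 7 tested. Of all 9 genes tested on the Y chromosome, 8 were higher and 1 lower. Ddx3y had 98.9 and 121 CPM in wildtype mESCs, against 9.43 and 9.23 CPM in FLAG-WT mESCs (3.57 ± 0.13 SE, edgeR adjusted p = 3.11e-19). Eif2s3y had 88.7 and 94.4 CPM in wildtype mESCs, against 4.46 and 4.36 CPM in FLAG-WT mESCs (4.38 ± 0.11 SE, edgeR adjusted p = 1.04e-22). In K19R mESCs, Ddx3y had 59.1 and 57.4 CPM, between the other 2 groups. Of 17 genes of X inactivation and dosage 9 were higher and 2 lower. Xist, the RNA that coats an inactive X, had 4.87 and 4.85 CPM in wildtype mESCs, against 5.46 and 4.76 CPM in FLAG-WT mESCs, and did not pass (-0.07 ± 0.15 SE, edgeR adjusted p = 0.69), and it overlaps its antisense Tsix, so that reads of the 2 could not be told apart. Klhl13 had 497 and 512 CPM in wildtype mESCs, against 82.1 and 89.2 CPM in FLAG-WT mESCs (2.56 ± 0.07 SE, edgeR adjusted p = 3.32e-21).

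Genes on chromosome 11 were lower as a whole. Of 1529 tested there, 763 (49.9%) were lower and 302 (19.8%) higher, and the median log2 fold change was -0.37. Chromosome 8 followed with a median of -0.18, and the other autosomes and the X ran from -0.06 to 0.18. Every 20 Mb bin of chromosome 11 had a median below 0, from -0.63 to -0.28, and so had every bin of chromosome 8, from -0.34 to -0.06. Of other genes named above, Sparc and Pecam1, which were lower, and Etv4, Socs3 and Grb10, which were higher, lie on chromosome 11. Klf2, Jund, Tubb3 and Col4a1, which were lower, and Dusp4, which was higher, lie on chromosome 8. Whether their place had a part in their values was not tested. Against K19R mESCs in 2i in place of FLAG-WT mESCs, the chromosome 11 median of wildtype mESCs was -0.36, and that of K19R over FLAG-WT mESCs was -0.01. What lay behind this was not tested.

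**Figure D5:**
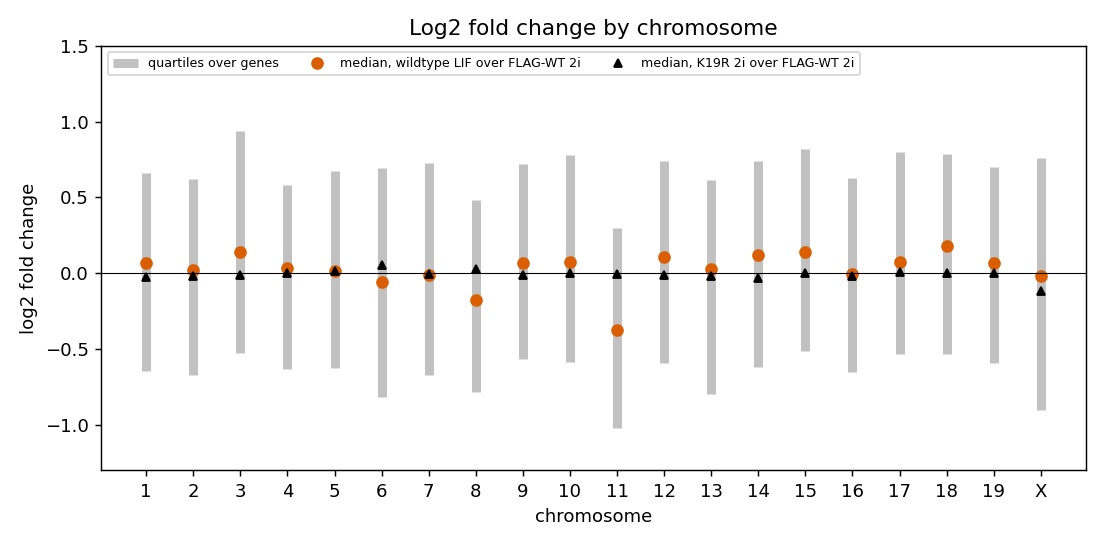
Median log2 fold change of the tested genes on each autosome and the X for wildtype mESCs in LIF over FLAG-WT mESCs in 2i (orange, with grey bars from the first to the third quartile) and for K19R over FLAG-WT mESCs in 2i (black triangles). Chromosome 11 lies at -0.37 in the first comparison and at -0.01 in the second.

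RNA classes that differ in structure or processing moved too. Of 15 mitochondrially encoded genes 12 were lower and none higher. They took 0.956% and 0.818% of counts in wildtype mESCs, against 1.48% and 1.43% in FLAG-WT mESCs. mt-Co1 had 3924 and 3340.3 CPM in wildtype mESCs, against 7186 and 6900.4 CPM in FLAG-WT mESCs (-0.96 ± 0.10 SE, edgeR adjusted p = 1.81e-09), whereas mt-Co2 had 0.065 and 0.148 CPM in wildtype mESCs, against 13.5 and 13.3 CPM in FLAG-WT mESCs. mt-Atp6 had 0.065 and 0.148 CPM in wildtype mESCs, against 13.1 and 12.9 CPM in FLAG-WT mESCs. Both have a near-identical copy in the nuclear genome, and multi-mapping pairs were handled by the default setting of featureCounts, so these 2 values are uncertain. Large falls were also seen in mt-Nd4l (-5.82), mt-Co3 (-5.61), mt-Atp8 (-4.44) and mt-Nd3 (-3.16), which are among the 12. Whether the same doubt reaches them was not tested. Replication-dependent histone genes, whose mRNA lacks a poly(A) tail, were lower in 13 of 21, and in 6 without wildtype replicate 2, with Hist1h1c at 6.82 and 6.27 CPM in wildtype mESCs, against 27.9 and 25.2 CPM in FLAG-WT mESCs (-2.04 ± 0.18 SE, edgeR adjusted p = 7.55e-11). Genes in the shortest quartile of exon length had a median of -0.16, and those in the longest 0.09. Of 25 ribosomal protein genes 17 were higher and 6 lower, with Rpl3 higher by 1.05 and Rpl13 lower by 0.85. Many of these have processed pseudogenes that can share reads. Of 25 nuclear oxidative phosphorylation genes 11 were higher and 6 lower, none by 2-fold. Whether library preparation had a part in these values was not tested.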

How the data were processed

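Per the labels' protocols, RNeasy was used for extraction, and a VAHTS kit for total RNA made the libraries. The deposited values are raw counts of read pairs per gene, which the authors made with featureCounts (1.6.4 for the wildtype table, 1.6.3 for the FLAG-EED table). Per the file headers, both ends had to map, chimeric pairs were left out, exons were summed by gene name on GENCODE vM19 (GRCm38), and no strand option was set, so overlapping antisense genes cannot be told apart. STAR 2.7.0c, Trim Galore 0.6.0, FastQC 0.11.7 and bcl2fastq 2.17 are listed in the submitters' processing notes.

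The tables were joined on 54352 shared names, and 77 names found only in the FLAG-EED table were left out. All 18 libraries in 9 groups entered one edgeR 4.0.16 quasi-likelihood fit (R 4.3.3, limma 3.58.1) with TMM scaling and filterByExpr (minimum count 10, total 15), which left 19296 genes and 9 residual degrees of freedom. The contrast was wildtype LIF minus FLAG-WT day 0, two-sided, with Benjamini-Hochberg adjustment over all genes and a threshold of 0.05. Replicates had r = 0.998 in both groups (log2 of CPM + 1, across genes) and differed by more than counting noise, with a chi-square per degree of freedom of 3.34 in wildtype and 2.28 in FLAG-WT mESCs. Count ratios and their 95% binomial intervals cover counting error only, and folds against 0 counts use a floor of 3 counts per library. The fit was tested on simulated data, where 2-fold changes were missed more often at low counts.

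The members and the 37 gene lists were chosen with earlier results of these data known. Named genes were, with groups that did not overlap and at least 10 CPM in the higher group, the 10 most increased and 10 most decreased, leaving out predicted genes and pseudogenes. To these came up to 4 called members per list in the commoner direction and 1 in the other, by smallest p, and a fixed set of marker genes. Some other list members were named after their values were seen. Alternatives tried were DESeq2 1.42.0, other scalings and filters, other sets of libraries, a replicate block and each library left out in turn. Some members of the lists are counted but not reported here by name.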

Additional observations from a re-analysis of the deposited data

How the results depend on the processing

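With all libraries and the usual filter 12519 genes were called, 6251 higher and 6268 lower in wildtype mESCs. With genes held to at least 10 CPM in 2 of the 4 libraries, 9645 genes were tested and 7621 called, 3829 higher and 3792 lower, because fewer genes were tested. Leaving out each of the 4 libraries in turn gave 10296 to 11562 calls, 5151 to 5838 higher and 5145 to 5724 lower. DESeq2 called 11725, and with no filter 12269 were called, of which 46.1% were higher, against 49.9% with the filter. The numbers 1 and 2 were not taken to pair the samples in the main fit. The deviations of same-numbered libraries had r = -0.0274 over 2 pairs, across genes. That shows no shared deviation but cannot show whether the samples were handled in pairs. With the replicate block 12409 genes were called, 6193 higher and 6216 lower. No gene called both ways changed sign in any of these settings. Of the genes named by the rule, Eed lost its call with no filter (edgeR adjusted p = 0.0813) and as given above, and Erg without wildtype replicate 2 (edgeR adjusted p = 0.0502). Over all members, leaving out 1 library lost 24 to 49 calls, most without wildtype replicate 2, and gained 1 to 8. No filter lost 15 and gained 12, Cubn among them (edgeR adjusted p = 1.07e-05), and a fit of the 4 or of the 6 mESC libraries gained 27 or 22 and lost none. Medians of lists changed sign as follows: DNA methylation 0.02 without FLAG-WT replicate 2, neural 1.44 and trophoblast 0.30 under the 10 CPM filter, endothelial and blood -0.13 with only the 4 libraries and -0.11 with the 6 mESC libraries, and Myc and ribosome biogenesis just below 0 with no filter, beside the WNT list given above. The chromosome 11 median ran from -0.41 to -0.21. Depth limits low genes most, since wildtype replicate 1 held 14190166 counts.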
